A study of Mus musculus with 4 samples.

Results

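The 9 genes described here encode the constant parts of mouse antibodies and their linker: the heavy chains Ighm, Ighd, Igha, Ighg1, Ighg2b, Ighg2c and Ighg3, the kappa light chain Igkc, and Jchain. They were found by symbol among the 31053 features of the deposited tables, and all 9 were present. The chains are made by B cells and by plasma cells, so their unique molecular identifiers (UMIs, 1 per captured transcript) were summed over cells passing a B-cell marker gate, over cells passing a plasma cell marker gate, and over all other cell classes. None of the 9 genes is a gate marker.

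The libraries came from the stromal vascular fraction of inguinal white fat, which holds the non-adipocyte cells of the pad. Cells of 8 iAdFASNKO mice were pooled, and so were cells of 7 control mice given as C57BL/6; the line is known as one in which Fasn, the gene of fatty acid synthase, can be deleted in adipocytes by an inducer. The sources used here do not give age, sex, diet or inducing agent. Magnetic beads against lineage markers divided each pool into the cells that bound (Lin+) and those that did not (Lin-). By marker classes, 1816 of 4415 retained Lin+ iAdFASNKO cells and 1842 of 2881 Lin+ control cells were non-immune, so the Lin+ libraries were enriched in immune cells without being free of stroma. That gave 4 libraries, Lin+ iAdFASNKO, Lin+ control, Lin- iAdFASNKO and Lin- control, with 1 library of pooled mice per genotype and fraction, so no test between genotypes was possible and no p-value is given.

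In an antibody, heavy and light chains pair, and the heavy chain constant region sets the class. A naive B cell makes IgM and IgD from 1 heavy chain locus by splicing the same rearranged variable segment to Ighm or to Ighd, and class switching later replaces Ighm by an Ighg, Igha or Ighe gene through deletion of the DNA between them. When a B cell becomes a plasma cell, IgD stops being made and secreted antibody becomes a large part of its transcripts. The J chain joins IgM into pentamers and IgA into dimers by disulfide bonds to a cysteine in the short tail at the end of those heavy chains, whereas IgG chains end without such a tail. Fat holds B cells and plasma cells both scattered between adipocytes and gathered in lymphoid clusters, and the inguinal pad surrounds a lymph node.

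The heavy chain genes lie side by side on the minus strand of chromosome 12 (mm10, coordinates and sequences from the GENCODE M21 annotation and the mm10 genome). Ighm spans chr12:113418558-113422730, Ighd chr12:113406604-113416324, Ighg3 chr12:113356224-113361232, Ighg1 chr12:113325240-113330523, Ighg2b chr12:113302965-113307933, Ighg2c chr12:113285325-113288932 and Igha chr12:113254830-113260236. Igkc lies on the plus strand at chr6:70726435-70726966 and Jchain on the minus strand at chr5:88519809-88527891. The ends of the coding sequences are printed because they hold the site at which the J chain joins IgM and IgA, and because the closeness of the Ighg genes bears on how reads were split between them. Each line gives the last 60 coding bases of the annotated transcript in the last coding exon, stop codon included, 5′ to 3′, and capitals mark the last codon but 1 where it encodes cysteine.
Ighm: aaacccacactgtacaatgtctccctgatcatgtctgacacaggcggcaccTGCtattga
Igha: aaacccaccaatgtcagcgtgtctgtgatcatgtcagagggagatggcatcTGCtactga
Ighg1: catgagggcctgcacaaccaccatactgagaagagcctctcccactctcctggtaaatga
Ighg2b: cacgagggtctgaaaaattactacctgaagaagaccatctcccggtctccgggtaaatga
Ighg2c: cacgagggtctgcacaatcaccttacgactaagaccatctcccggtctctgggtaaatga
Ighg3: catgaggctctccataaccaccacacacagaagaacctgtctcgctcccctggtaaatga
The Ighm stretch is chr12:113420867-113420926, the Igha stretch chr12:113258768-113258827, the Ighg1 stretch chr12:113328976-113329035, the Ighg2b stretch chr12:113306389-113306448, the Ighg2c stretch chr12:113287389-113287448 and the Ighg3 stretch chr12:113359665-113359724. Ighm and Igha carry the cysteine codon and share 41 of the 60 bases, while the 4 Ighg genes have ggt at that codon and share 20 to 27 bases with Ighm. Among the Ighg genes 41 to 49 of the 60 bases are shared. Over their whole coding sequences Ighg2b and Ighg2c were 86.4% identical across 1005 aligned bases, so counts of these 2 genes are uncertain where reads could fall on either.

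The libraries held 6133 (Lin+ iAdFASNKO), 3686 (Lin+ control), 4856 (Lin- iAdFASNKO) and 3661 (Lin- control) barcodes, and between 2881 and 4415 cells per library were retained. Total UMIs ran from 21622291 to 33016494, and the median per retained cell was 3303 UMIs in Lin+ iAdFASNKO, 5358 in Lin+ control, 4152 in Lin- iAdFASNKO and 9121 in Lin- control. The shallower library of each fraction was thus the iAdFASNKO one. Fasn itself had 21.7 CPM in Lin+ iAdFASNKO and 36.2 CPM in Lin+ control cells, and 24.8 CPM in Lin- iAdFASNKO and 38.1 CPM in Lin- control cells (CPM, counts scaled to a common total of UMIs per class or library). Adipocytes, the cells targeted by the knockout, are not in this fraction of the tissue, so Fasn checks nothing about the deletion here.

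Libraries shared barcodes, and this touched antibody transcripts. Between 109 and 170 barcodes were common to any pair of libraries. In all, 24 barcodes had fewer than 300 genes and over 50% immunoglobulin UMIs, and 23 of them carried the barcode of a plasma-gated cell in another library. Their totals of 447 to 657 UMIs were 1.39% to 2.60% of that cell's UMIs, and all 23 had the same leading heavy chain as that cell. The 8 plasma-gated cells concerned had at least 20940 UMIs each, and all 23 copies were removed by the cell filter. Among retained cells, 5 Lin+ control, 1 Lin- iAdFASNKO and 3 Lin- control cells in the B-cell gate carried a barcode that another library held with at least 10 times the UMIs, and no plasma-gated cell did. Over all retained cells, 82 in Lin+ iAdFASNKO, 100 in Lin+ control, 40 in Lin- iAdFASNKO and 45 in Lin- control carried such a barcode. Leaving out all such barcodes gave a log2 ratio of 0.12 for Ighm and 0.14 for Igkc in Lin+ B-gated cells, the same as with them.

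The B-cell gate (at least 3 of 10 markers such as Cd79a, Ms4a1 and Pax5) took 1348 of 4415 Lin+ iAdFASNKO cells (30.5%, exact 95% interval 29.2 to 31.9) and 336 of 2881 Lin+ control cells (11.7%, 10.5 to 12.9), against 22 Lin- iAdFASNKO and 16 Lin- control cells. The plasma cell gate (at least 3 of 8 markers such as Mzb1, Derl3 and Tnfrsf17) took 12 Lin+ iAdFASNKO cells (0.272%, 0.141 to 0.474), 12 Lin+ control cells (0.417%, 0.215 to 0.726), 13 Lin- iAdFASNKO cells and 7 Lin- control cells. These and all later intervals cover counting error only, not differences between mice or preparations. Cells in the Lin+ B-cell gates had a median of 7 B-cell markers on and cells in the plasma cell gates 5 or 6 plasma cell markers, with a median of 0 T-cell and macrophage markers. The median number of progenitor markers on was 1 in the Lin+ B-cell gates and 1 or 2 in the plasma cell gates. Plasma-gated cells also had a median of 2 to 3.5 B-cell markers on. The gates were also set against Leiden clusters: 1338 of 1348 and 335 of 336 Lin+ B-gated cells, and every plasma-gated cell, fell into clusters of the same name. In the other direction, the plasma cell clusters held 16 Lin+ iAdFASNKO, 12 Lin+ control, 19 Lin- iAdFASNKO and 7 Lin- control cells. They were thus larger than the plasma cell gates in both iAdFASNKO libraries and equal to them in the control ones. Near the edge of the B-cell gate, 53 Lin+ iAdFASNKO and 9 Lin+ control cells had exactly 3 markers on, and 94 and 19 ungated cells had exactly 2.

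Every plasma-gated cell had 1 dominant heavy chain. Of the 44 cells in the plasma cell gates of the 4 libraries, 32 made Ighm, 6 Ighg2b, 2 Ighg3, 2 Igha and 1 Ighg2c. The remaining cell made Ighe, the heavy chain of IgE, which is outside the 9 genes, and none made Ighg1. A class was called with at least 3 heavy chain UMIs, 80% of them from 1 class, but the lowest share in any plasma-gated cell was 97.4%. Ighm cells were 9 of 12 in Lin+ iAdFASNKO and 7 of 12 in Lin+ control, and 11 of 13 in Lin- iAdFASNKO and 5 of 7 in Lin- control. So most plasma-gated cells of each library were unswitched, and the switched ones were few: Lin+ iAdFASNKO held 1 Igha, 1 Ighg2b and 1 Ighg3 cell, Lin+ control 4 Ighg2b cells and 1 Ighg2c cell, Lin- iAdFASNKO 1 Igha and 1 Ighg2b cell, and Lin- control 1 Ighg3 and 1 Ighe cell.

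**Figure D1:**
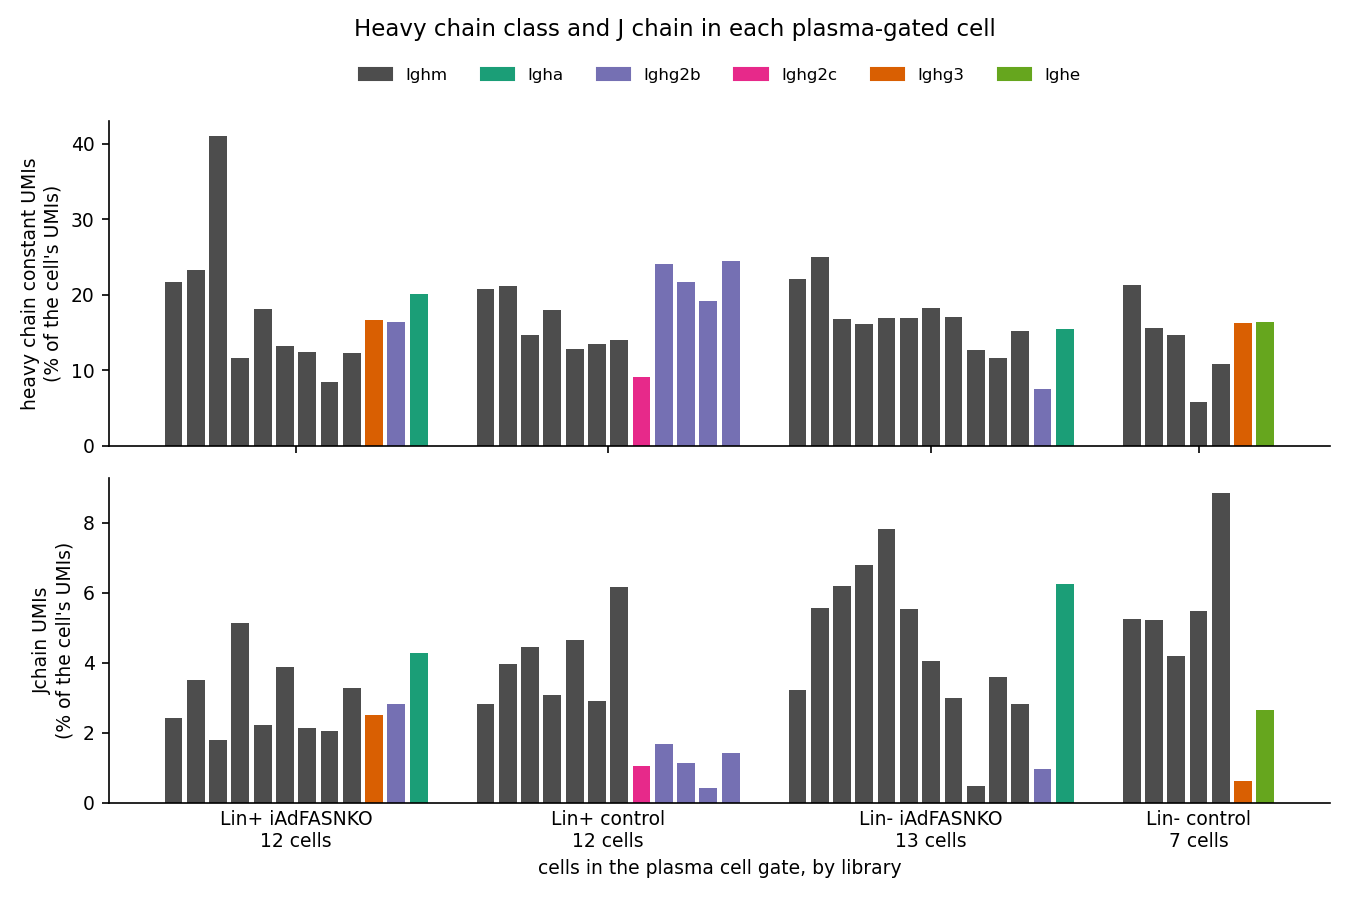
Each bar is 1 cell of the plasma cell gate, grouped by library (12, 12, 13 and 7 cells) and coloured by its heavy chain class; the upper panel gives heavy chain constant UMIs and the lower panel Jchain UMIs, both as percent of the cell's UMIs. Ighm cells are the most frequent colour in every library, and 4 of the 5 Ighg2b or Ighg2c cells of Lin+ control are Ighg2b.

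Ighm, the IgM heavy chain, had 116255 CPM in Lin+ iAdFASNKO and 86162 CPM in Lin+ control plasma-gated cells, and 148263 CPM in Lin- iAdFASNKO and 105140 CPM in Lin- control ones. The ratio of iAdFASNKO over control was 1.35 (1.32 to 1.37) in Lin+ and 1.41 (1.37 to 1.45) in Lin-. In both fractions the iAdFASNKO library was the higher one, and without the highest cell of each library the ratios were 1.31 and 2.09. Per plasma-gated cell, the median share of UMIs from Ighm was 12.4% and 13.1% in Lin+ iAdFASNKO and Lin+ control, and 16.8% and 10.8% in Lin- iAdFASNKO and Lin- control. The Lin+ order by the median cell was therefore not that of the sum.

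The switched classes were set by 1 to 4 cells a library. Ighg2b, an IgG heavy chain, had 5386 UMIs in Lin+ iAdFASNKO and 23684 in Lin+ control plasma-gated cells, a CPM ratio of 0.258 (0.251 to 0.266), beside 1 and 4 Ighg2b cells. In Lin- it had 978 UMIs in iAdFASNKO and 4 in control, beside 1 and 0 such cells. Ighg3 had 4376 UMIs in Lin+ iAdFASNKO, 21 in Lin+ control, 32 in Lin- iAdFASNKO and 1487 in Lin- control. Each of the high libraries, Lin+ iAdFASNKO and Lin- control, held 1 Ighg3 cell, and without the highest cell the Lin+ ratio of 237 (155 to 383) turned to 0.227. Igha, the IgA heavy chain, had 2256 UMIs in Lin+ iAdFASNKO, 4 in Lin+ control, 686 in Lin- iAdFASNKO and 1 in Lin- control, and nearly all UMIs of both iAdFASNKO values came from 1 cell each. These gate sums leave out cells outside the gate. Of 1712 Igha UMIs in the Lin+ control library, 1107 lay in 1 barcode with markers of several classes and 543 in 1 progenitor-gated cell. In Lin- iAdFASNKO 365 of 425 Ighg3 UMIs lay in 1 unassigned cell. Ighg2c had 952 UMIs in Lin+ control, all in 1 cell, 8 in Lin- iAdFASNKO, and 0 in Lin+ iAdFASNKO and Lin- control. Ighg1 had 15 UMIs in Lin+ iAdFASNKO and none in the other plasma cell gates, where the floor of 3 counts is between 12.5 and 40.1 CPM.

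Igkc, the kappa constant region, was the most abundant of the 9 genes in every plasma cell gate. It had 389254 CPM in Lin+ iAdFASNKO and 333084 CPM in Lin+ control cells (ratio 1.17, 1.16 to 1.18), and 209269 CPM in Lin- iAdFASNKO and 391389 CPM in Lin- control cells (ratio 0.535, 0.525 to 0.544). The Lin- iAdFASNKO value was the lowest of the 4. Beside it, 4 of the 13 cells in that gate were lambda cells, against 0 of 7 in Lin- control, 1 of 12 in Lin+ iAdFASNKO and 2 of 12 in Lin+ control. Each of the 7 lambda cells had a single leading lambda gene. The lambda cell of Lin+ iAdFASNKO had 7056 UMIs of Iglc3, and those of Lin+ control had 4792 of Iglc1 and 12379 of Iglc2. The Lin- iAdFASNKO lambda cells had 2348 UMIs of Iglc1, 2433 and 2174 of Iglc2, and 1032 of Iglc3.

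Jchain had 29842 CPM in Lin+ iAdFASNKO and 25199 CPM in Lin+ control plasma-gated cells (ratio 1.18, 1.14 to 1.23), and 43468 CPM in Lin- iAdFASNKO and 46250 CPM in Lin- control ones (ratio 0.940, 0.898 to 0.984). The fractions went opposite ways by small amounts, and without the highest cell of each library the ratios were 1.20 and 1.11. Every plasma-gated cell had Jchain UMIs. Its per-cell median was 529.5 UMIs (143 to 966) in Lin+ iAdFASNKO, 461 (109 to 994) in Lin+ control, 281 (19 to 571) in Lin- iAdFASNKO and 484 (56 to 944) in Lin- control, so the 4 ranges overlapped widely. Outside the gate the gene was rare: the plasma cell gate held 72.2% and 91.3% of all Jchain UMIs of the Lin+ iAdFASNKO and Lin+ control libraries, and 80.5% and 93.9% of those of Lin- iAdFASNKO and Lin- control.

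Of the 9 genes, 7 were measured in the Lin+ plasma cell gates (at least 20 UMIs over both libraries). Of these, 2 (Igha and Ighg3) had a CPM ratio of 1.5 or more and 2 (Ighg2b and Ighg2c) of 1/1.5 or less. Among all 1120 features measured there, 13.4% were past the fold upward, 14.8% downward and 28.2% in either direction. In Lin- 6 were measured, 2 of them past the fold upward (Igha and Ighg2b) and 2 downward (Ighg3 and Igkc), against 34.4% upward, 9.68% downward and 44.1% in either direction among 506 features. The median log2 ratio of the measured genes was 0.24 in Lin+ against -0.04 for all features, and 0.20 in Lin- against 0.30. With 7 to 13 cells a gate, all the genes past the fold other than Igkc were those made by 1 to 4 cells. The Lin+ ratio of Igha covers gated cells only. Its plasma cell gate held 97.1% of the library's Igha UMIs in Lin+ iAdFASNKO and 0.234% in Lin+ control.

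**Figure D2:**
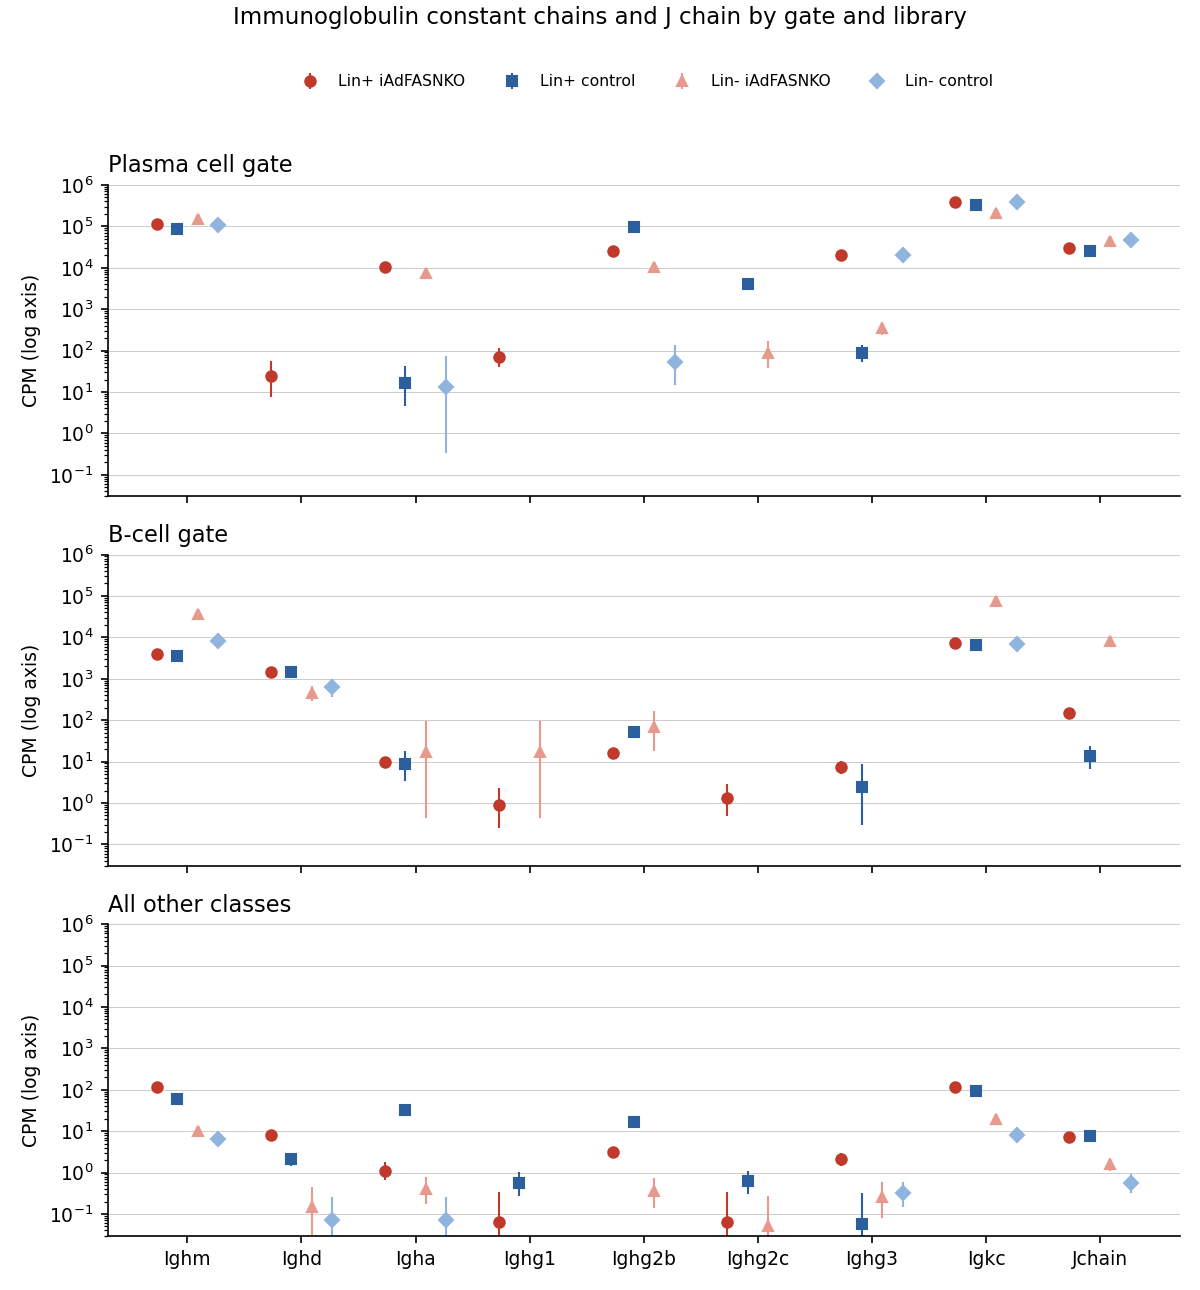
The level of each gene in CPM (log axis) is plotted for the plasma cell gate, the B-cell gate and all other classes, with 1 point per library and exact 95% counting intervals; values of 0 UMIs have no point. Ighm, Igkc and Jchain lie within about 1 axis step of each other across libraries in the plasma cell gate, while Ighg2b, Ighg3 and Igha spread over several steps.

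With cells of all libraries pooled, which are not replicates, J chain level had a lower median in Ighg cells than in Ighm cells. It was set against the heavy chain as Jchain UMIs per 100 heavy chain constant UMIs of the same cell, a ratio that needs no scaling for depth. Cells with Ighg2b, Ighg2c or Ighg3 had a median of 6.95 (2.24 to 17.1, n = 9 cells), Ighm cells 24.4 (3.76 to 93.9, n = 32), the 2 Igha cells 21.4 and 40.4, and the Ighe cell 16.1. Of the 32 Ighm cells, 25 lay above every Ighg cell, and all 9 Ighg cells lay below the Ighm median. In Lin+ control the 5 Ighg cells (2.24 to 11.4) lay below all 7 Ighm cells (13.7 to 44.1), and in Lin- control the single Ighg cell (3.77) lay below all 5 Ighm cells (24.7 to 93.9). The classes overlapped in both iAdFASNKO libraries. In Lin+ iAdFASNKO the Ighg cells had 15.2 and 17.1, beside 4.4 to 44.1 in 9 Ighm cells with a median of 17.1. In Lin- iAdFASNKO the Ighg cell had 12.8, beside 3.76 to 46.2 in 11 Ighm cells.

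The Ighg cells were the larger ones, with a median of 26083 UMIs against 10598 in Ighm cells, and they also had more heavy chain UMIs (median 5340 against 1688), which lowers a ratio to heavy chain. As a share of all UMIs of a cell, Jchain had a median of 1.12% (0.431 to 2.80) in Ighg cells and 3.91% (0.478 to 8.84) in Ighm cells. By this measure the Ighg cells of Lin+ iAdFASNKO (2.51% and 2.80%) were not below the Ighm median of their library (2.41%), while those of Lin+ control (0.431% to 1.67%) were below all its Ighm cells (2.83% to 6.15%). The 2 Igha cells had 4.29% and 6.23%, and the Ighe cell 2.64%. The lowest Ighg cell had 56 Jchain UMIs and the lowest Ighm cell 19.

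**Figure D3:**
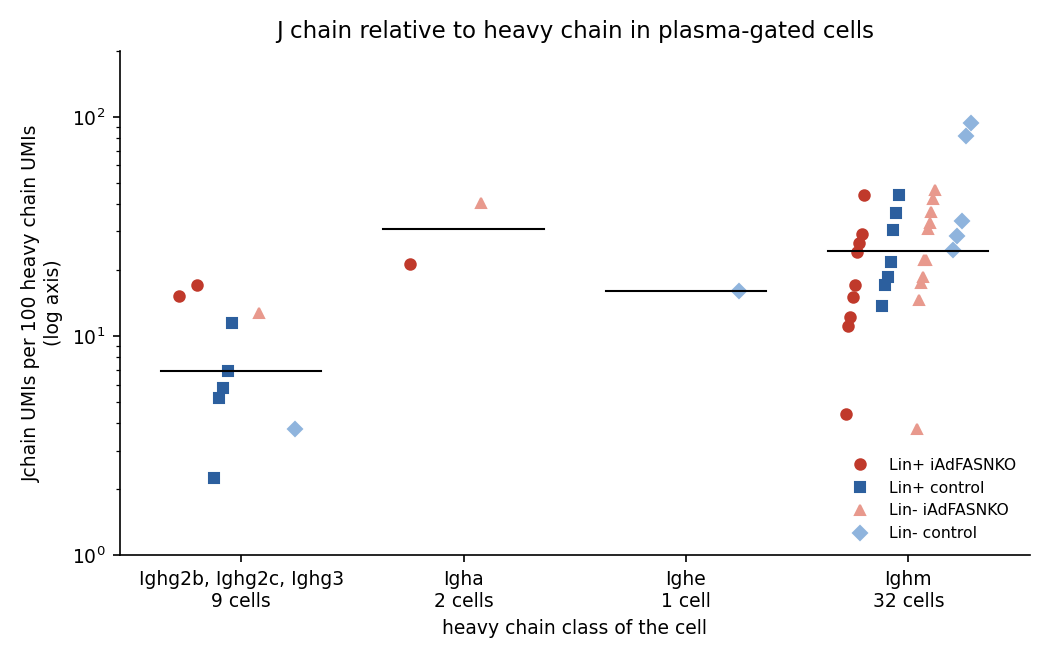
Each point is a plasma-gated cell; the vertical axis gives Jchain UMIs per 100 heavy chain constant UMIs (log axis), the horizontal axis the heavy chain class (9 Ighg, 2 Igha, 1 Ighe and 32 Ighm cells), colour and shape the library, and black lines the median of a class. The Ighg line lies at 6.95 and the Ighm line at 24.4, and 25 Ighm cells lie above every Ighg cell.

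B-gated cells were almost all unswitched. In Lin+ 1301 of 1302 iAdFASNKO cells with a class call (99.9%) and 310 of 311 control cells (99.7%) were called for Ighm and Ighd together. Over the 4 libraries there were 1641 unswitched cells, 3 Ighg2b cells (1 in Lin+ iAdFASNKO, 1 in Lin+ control and 1 in Lin- iAdFASNKO) and 78 without a call. At a median of 2451 and 2228 UMIs a cell in Lin+ iAdFASNKO and Lin+ control, switched cells with little transcript may have gone without a call.

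Ighm had 3967 CPM (3909 to 4026) in Lin+ iAdFASNKO and 3643 CPM (3514 to 3777) in Lin+ control B-gated cells, a ratio of 1.09 (1.05 to 1.13). This direction rested on 1 Lin+ iAdFASNKO cell with 3530 Ighm UMIs, 19.9% of the sum, which had 9 B-cell and 6 plasma cell markers on, 583 Jchain UMIs and no Ighd. Without the highest cell of each library the values were 3200 and 3597 CPM and the ratio 0.889 (0.855 to 0.926). The median cell had 8 Ighm UMIs (quartiles 5 and 12) in Lin+ iAdFASNKO and 7 (4 and 11) in Lin+ control, and 98.9% and 98.5% of cells had at least 1. Ighm was therefore close to equal in B-gated cells of the 2 Lin+ libraries, and its order turned with a single cell.

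Ighd, the IgD heavy chain, had 1495 CPM in Lin+ iAdFASNKO and 1418 CPM in Lin+ control B-gated cells (ratio 1.05, 0.990 to 1.12), with a median of 4 UMIs (2 to 6) and 3 UMIs (1 to 5) per cell. It was detected in 92.2% of iAdFASNKO and 86.6% of control cells, and in 76.0% and 70.6% after each cell was thinned to 1000 UMIs. Cells with both Ighm and Ighd, the pattern of mature naive B cells, were 91.4% (89.8 to 92.8) in Lin+ iAdFASNKO and 86.0% (81.8 to 89.5) in Lin+ control, and cells with Ighm alone were 7.49% and 12.5%. The iAdFASNKO cells were also the deeper ones, and the part of depth in the share was tested only by that thinning of Ighd. Summed UMIs of Ighm per Ighd UMI were 2.65 in Lin+ iAdFASNKO and 2.57 in Lin+ control. The iAdFASNKO value includes the cell with 3530 Ighm UMIs and no Ighd. Without that cell 14240 Ighm UMIs stood beside 6697 of Ighd, and in Lin+ control 2985 stood beside 1162. The closeness of the summed ratios thus rested on that cell.

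Igkc had 7135 CPM in Lin+ iAdFASNKO and 6496 CPM in Lin+ control B-gated cells (ratio 1.10, 1.07 to 1.13). The same iAdFASNKO cell held 5241 of its UMIs, and without the highest cells the ratio was 0.932 (0.905 to 0.960). The median cell had 15 UMIs in iAdFASNKO and 13.5 in control. The lambda genes Iglc1, Iglc2 and Iglc3 had 351, 1000 and 688 CPM in iAdFASNKO and 344, 1138 and 688 CPM in control cells, and lambda made up 22.2% and 25.04% of light chain UMIs. The iAdFASNKO share includes the cell with 5241 Igkc UMIs, which had 17, 22 and 18 UMIs of Iglc1, Iglc2 and Iglc3. The median share of lambda per cell was 21.7% in iAdFASNKO and 21.4% in control. Unlike the plasma-gated cells, which had at least 91.1% of their light chain UMIs from 1 type, single B-gated cells mixed both: Igkc and a lambda gene were detected together in 90.1% (88.4 to 91.7) of iAdFASNKO and 89.0% (85.1 to 92.1) of control cells. In T cells of the same libraries, at higher median depth (3909 and 3277 UMIs), both were detected in 2.42% and 0.873%, and in progenitors (5667 and 8166 UMIs) in 3.68% and 4.06%. With 80% of light chain UMIs as the limit, 792 B-gated cells of the 4 libraries were called kappa, 56 lambda and 874 neither.

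The switched classes and J chain were scarce in B-gated cells. Ighg2b had 16.1 CPM in Lin+ iAdFASNKO and 51.3 CPM in Lin+ control B-gated cells (72 and 42 UMIs), a ratio of 0.314 (0.211 to 0.470), and 3.18 and 16.8 CPM in the other classes. Both libraries were thus higher in the B-cell gate than outside it, and the iAdFASNKO library was the lower one in both places. The share of cells with an Ighg2b UMI was 2.15% in Lin+ iAdFASNKO and 10.1% in Lin+ control B-gated cells, beside 1.84% and 11.5% of the deeper other classes. With every cell thinned to 1000 UMIs it was 0.714% (0.327 to 1.35) and 4.58% (2.52 to 7.56) of B-gated cells, beside 0.398% (0.191 to 0.730) and 2.09% (1.53 to 2.78) of other cells. Jchain was detected in 3.71% and 2.98% of B-gated cells, and in 3.997% and 3.28% of other cells. After thinning these were 1.90% (1.22 to 2.82) and 1.31% (0.357 to 3.31) of B-gated cells, beside 0.835% (0.518 to 1.27) and 0.772% (0.451 to 1.23) of other cells. At equal depth the B-gated point values were above those of other cells for both genes, with overlapping intervals in all 4 comparisons. The Jchain CPM ratio of 10.96 (6.08 to 22.1) came from 659 UMIs in iAdFASNKO and 11 in control, with 583 of the iAdFASNKO UMIs in the 1 cell named above, and was 1.54 (0.772 to 3.51) without the highest cells. Igha had 43 UMIs in iAdFASNKO and 7 in control B-gated cells (ratio 1.12, 0.501 to 2.96). It was detected in 2.52% (1.75 to 3.51) of Lin+ iAdFASNKO B-gated cells, above the 0.671% (0.218 to 1.56) of T cells and 0.643% (0.321 to 1.15) of progenitors there, but in 2.08% of Lin+ control B-gated cells, beside 2.18% of T cells and 1.86% of progenitors. Ighg3 had 33 and 2 UMIs, in 2.08% and 0.298% of cells (ratio 3.02, 0.772 to 26.0), beside 0.940% of T cells and 1.23% of progenitors in Lin+ iAdFASNKO. Ighg1 and Ighg2c had 4 and 6 UMIs in iAdFASNKO and 0 in control, where 3 counts are 3.66 CPM.

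In the Lin+ B-cell gates 7 of the 9 genes were measured; 2 were past 1.5-fold upward (Jchain and Ighg3) and 1 downward (Ighg2b), against 10.5% upward, 8.66% downward and 19.1% in either direction of 9211 features. Their median log2 ratio was 0.14, against -0.02 for all features. Of the 3 genes past the fold, Ighg2b rested on 72 UMIs in iAdFASNKO and 42 in control, Jchain was set by 1 cell, and Ighg3 rested on 33 UMIs in iAdFASNKO and 2 in control. In the small Lin- B-cell gates 1 of 22 iAdFASNKO cells, with 4 B-cell and 2 plasma cell markers on, held 2129 of 2226 Ighm UMIs, 4338 of 4505 Igkc UMIs and 474 of 477 Jchain UMIs. The 16 Lin- control cells held 236 Ighm, 205 Igkc and 0 Jchain UMIs, 3 of them being repeats of larger Lin+ iAdFASNKO barcodes, so no ratio is read from these gates.

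Lists of related genes were chosen with earlier results of these data known and are described by counts. The counts past the fold are to be read against 10.5% of all features upward and 8.66% downward. In Lin+ B-gated cells 0 of 11 B-cell receptor signalling genes, such as Cd79a and Syk, were past the fold (median log2 ratio -0.05), and of 6 follicular naive genes 1 was: Ccr7, the homing receptor for lymphoid tissue, with 213 CPM in iAdFASNKO and 380 CPM in control (ratio 0.560, 0.493 to 0.639). Cr2, the complement receptor of mature B cells, had 539 CPM in iAdFASNKO and 454 CPM in control (ratio 1.19, 1.06 to 1.33). Of 6 germinal centre genes 3 were measured and 2 were past the fold upward on few counts, Mybl1 with 31 UMIs in iAdFASNKO and 2 in control (ratio 2.83, 0.721 to 24.4) and Rgs13 with 37 and 3 UMIs (2.26, 0.714 to 11.4). Of 6 B-1 cell genes 3 were measured and 2 were past the fold downward, Cd9 (0.617, 0.273 to 1.57) and Bhlhe41, a regulator of B-1 cells (0.630, 0.293 to 1.504). The intervals of all 4 genes include equal levels. Of 16 Fc receptor and immunoglobulin transport genes 9 were measured and 3 were past the fold upward, among them Pigr, the epithelial transporter of J-chain-bearing IgA and IgM, with 81 and 7 UMIs (ratio 2.12, 0.982 to 5.43). Fcmr, the receptor for IgM and a B-cell gate marker, had 758 CPM in iAdFASNKO and 721 CPM in control cells (ratio 1.05). Of 12 antibody secretion genes 11 were measured and 1 was past the fold downward, Sdf2l1, a cofactor of endoplasmic reticulum chaperones, with 11.8 CPM in iAdFASNKO and 24.4 CPM in control (ratio 0.485, 0.285 to 0.856). With no replicates, none of these differences has a check beyond counting.

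Within a library, plasma-gated cells exceeded B-gated cells in Ighm, Igkc and Jchain and had almost no Ighd. The plasma over B ratio of Ighm CPM was 29.3 (28.7 to 29.9) in Lin+ iAdFASNKO and 23.6 (22.8 to 24.6) in Lin+ control, and that of Igkc 54.6 and 51.3. For Jchain it was 203 in Lin+ iAdFASNKO and 1877 in Lin+ control. The Lin+ iAdFASNKO value rested on the B-gated cell with 583 UMIs, and was 1747 without it. Ighd had 5 UMIs in the plasma cell gate of Lin+ iAdFASNKO and 0 in the other 3, against 6697 and 1162 in the Lin+ B-cell gates, which is a plasma over B ratio of 0.0159 in Lin+ iAdFASNKO and at most 0.0109 in Lin+ control by the upper end of its interval. Because immunoglobulin transcripts made up 63.2%, 62.9%, 51.8% and 58.7% of all UMIs in the plasma cell gates of Lin+ iAdFASNKO, Lin+ control, Lin- iAdFASNKO and Lin- control, CPM of any gene there are lowered by the rest. In Lin+ B-gated cells they were 1.49% and 1.39%.

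The antibody secretion list holds chaperones and translocation factors such as Hsp90b1, Pdia4 and Ssr4, and its 9 genes that are not gate markers were set against the B-cell gate. In plasma-gated cells 9 of 9 were past 1.5-fold higher in Lin+ iAdFASNKO, Lin+ control and Lin- iAdFASNKO, against 6.49%, 6.1% and 22.4% of all features measured there, and 7 of 7 measured in Lin- control, against 18.3%. Their median log2 ratio of plasma-gated over B-gated cells was 3.62, 3.21, 3.22 and 2.99 in Lin+ iAdFASNKO, Lin+ control, Lin- iAdFASNKO and Lin- control, against -1.86, -1.85, -0.79 and -1.21 for all features. These genes thus went with the antibody chains, in a gate where most other genes had lower CPM. All 6 B-cell receptor signalling genes that are not gate markers were past 1.5-fold lower in plasma-gated cells of both Lin+ libraries (median log2 ratio -2.78 in iAdFASNKO and -2.79 in control), but 78.6% and 81.9% of all features were so too, and that count is not read as a result about the list. In Lin- iAdFASNKO 1 of 1 measured gene and in Lin- control 2 of 2 were lower, against 57.4% and 69.3% of all features.

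Outside the 2 gates, antibody transcripts were low but widespread in Lin+. Ighm had 119 CPM in the other classes of Lin+ iAdFASNKO and 60.3 CPM in those of Lin+ control, and 10.3 and 6.45 CPM in Lin- iAdFASNKO and Lin- control. Igkc had 116 and 91.9 CPM in Lin+ iAdFASNKO and Lin+ control, and 19.2 and 7.90 CPM in Lin-. Jchain was near equal in Lin+, at 7.12 and 7.45 CPM, and Ighd had 7.93 and 2.09 CPM. The share of other-class cells with an Igkc UMI was 45.2% in Lin+ iAdFASNKO, 37.2% in Lin+ control, 8.91% in Lin- iAdFASNKO and 6.70% in Lin- control. Lin+ iAdFASNKO, the library with most B-gated cells, was also the highest in Ighm, Igkc and Ighd outside the gates. For Igkc this order turned when a class needed at least 4 markers on (117 CPM in Lin+ iAdFASNKO and 185 CPM in Lin+ control), and with cells thinned to 1000 UMIs the values were close (142 and 139 CPM). Igha in Lin+ control was an exception, with 33.1 CPM, because 543 of 586 UMIs lay in 1 progenitor-gated cell, and it was 2.43 CPM without it.

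The switched classes seen at low level in other cells were mostly those that plasma-gated cells of the same library made. Ighg2b had 50 UMIs outside the gates in Lin+ iAdFASNKO (1 plasma-gated Ighg2b cell), 294 in Lin+ control (4 cells), 5 in Lin- iAdFASNKO (1 cell) and 0 in Lin- control (no cell), each without the highest other cell. Ighg3 had 32, 0, 4 and 8 UMIs in that order of libraries, beside 1, 0, 0 and 1 Ighg3 cells. Ighg2c had 10 UMIs in Lin+ control, the library with an Ighg2c cell, and 0 in the other 3, and Ighe had 14 in Lin- control, the library with the Ighe cell. Igha in Lin+ control (43 UMIs with no plasma-gated Igha cell) and Ighg1 there (9 UMIs) did not follow this order. The Lin+ control library held 1 Igha barcode with 1107 Igha UMIs that showed markers of several classes, and 1 removed barcode with 194 Ighg1 UMIs.

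**Figure D4:**
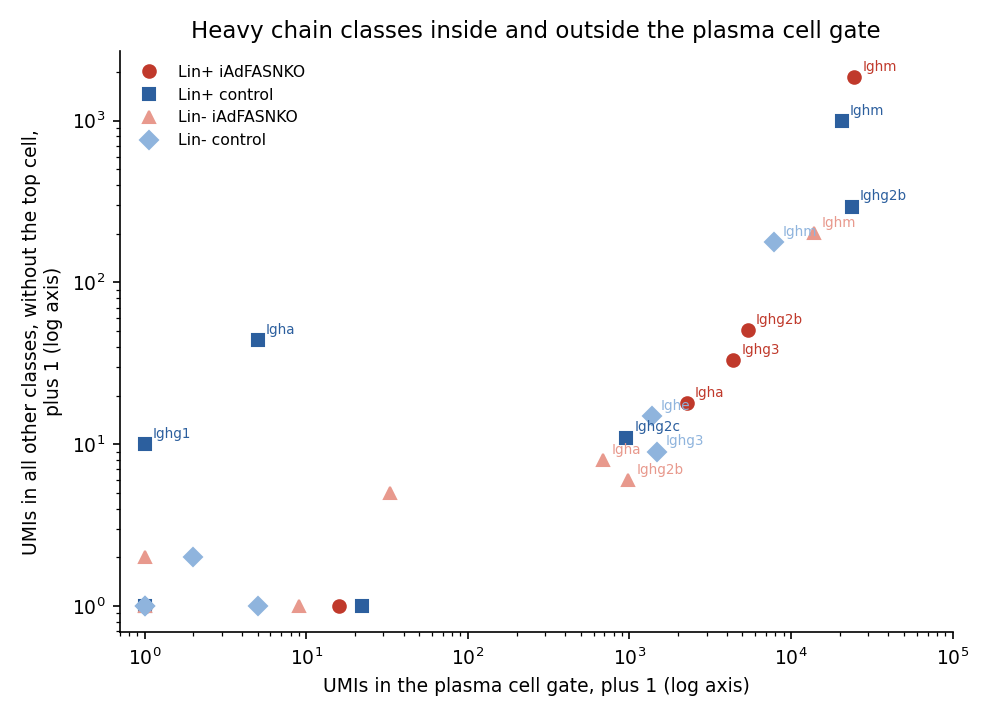
UMIs of each heavy chain gene except Ighd outside the B-cell and plasma cell gates, without the highest cell, are plotted against its UMIs in the plasma cell gate of the same library. Both are plus 1 on log axes, and colour and shape give the library. Ighd, which is not drawn, had 124 UMIs outside the gates beside 5 in the plasma cell gate of Lin+ iAdFASNKO, and 34 beside 0 in Lin+ control. Points rise together from Ighg2c and Ighe to Ighm, and Igha and Ighg1 of Lin+ control lie apart at few or no plasma-gate UMIs.

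The ratio of Ighm to Igkc outside the gates differed between cell classes. Plasma-gated cells had 0.299 Ighm UMIs per Igkc UMI in Lin+ iAdFASNKO and 0.259 in Lin+ control, and B-gated cells 0.556 and 0.561. Progenitors, muscle, endothelial and Schwann cells together lay between the gates, at 0.400 (0.360 to 0.445) in Lin+ iAdFASNKO and 0.331 (0.297 to 0.369) in Lin+ control. T cells lay above both gates, at 2.35 (2.11 to 2.62) in Lin+ iAdFASNKO and 1.90 (1.51 to 2.41) in Lin+ control, and so did NK cells, ILC2, dendritic cells, macrophages and neutrophils together, at 1.64 (1.31 to 2.07) and 2.51 (2.09 to 3.04). In Lin+ T cells and the pooled group of other immune classes were thus above both gates and the non-immune classes between them, in both genotypes. Single classes were less clear: Lin+ control neutrophils had 0.947 (0.469 to 1.91), an interval that includes the B-gated value. Mast cells and plasmacytoid dendritic cells were in none of these groups. The non-immune classes of Lin- iAdFASNKO were not between the gates, at 0.458 beside 0.494 in B-gated and 0.708 in plasma-gated cells. What sets the immune classes apart was not tested.

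In T cells the Lin+ iAdFASNKO counts were 1134 Ighm and 483 Igkc UMIs over 745 cells, with at most 29 Ighm UMIs in 1 cell, and the Lin+ control counts were 213 and 112. Ighm was detected in 60% of Lin+ iAdFASNKO and 42.4% of Lin+ control T cells, and in 26.3% and 20.5% when each cell was thinned to 1000 UMIs. Macrophages had 108 Ighm and 57 Igkc UMIs in Lin+ iAdFASNKO and 251 and 84 in Lin+ control. Progenitors of the same libraries had 469 Ighm and 1162 Igkc UMIs, and 438 and 1329. The Lin- counts were small and had the same order, T cells at 1.36 (0.585 to 3.28) in Lin- iAdFASNKO and 3.50 (1.10 to 14.6) in Lin- control, beside 0.458 (0.379 to 0.551) and 0.575 (0.457 to 0.721) in non-immune classes.

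**Figure D5:**
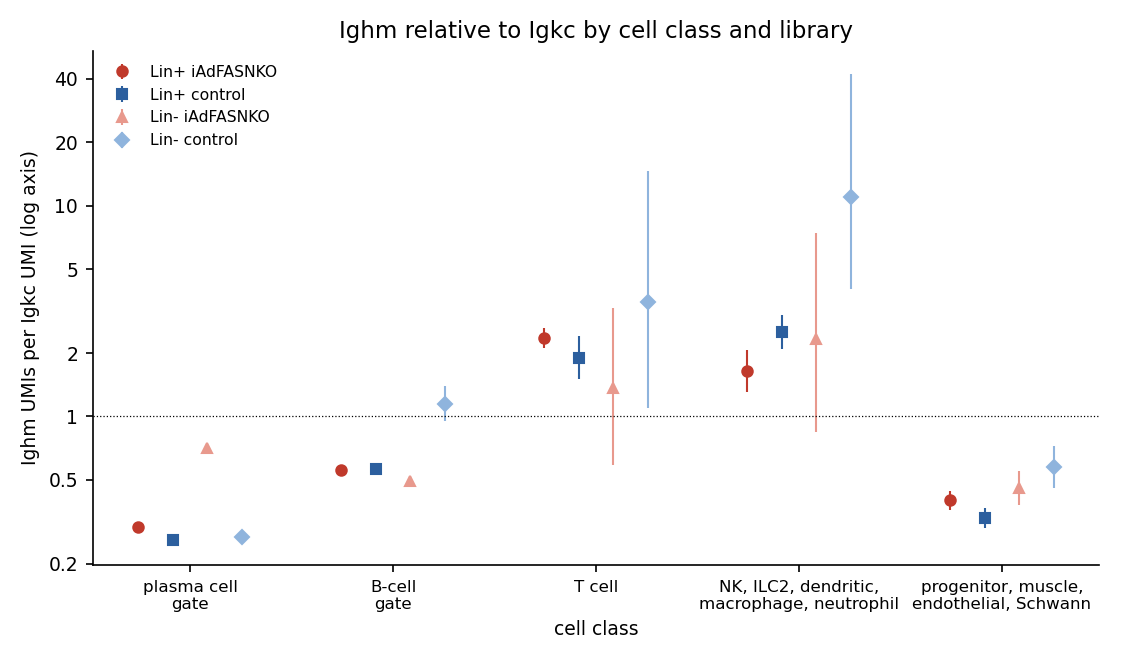
Ighm UMIs per Igkc UMI (log axis) are shown for 5 groups of cell classes, 1 point per library with exact 95% counting intervals, and the dotted line marks equal counts. T cells and the pooled group of other immune classes lie above the line in all 4 libraries, plasma-gated and non-immune cells below it.

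Reads on heavy chain variable segments were few, since the kit reads the 3′ end, and they give a measure of how often a variable segment was read beside the constant part. Over all libraries there were 1.10 (0.988 to 1.22) variable segment UMIs per 100 heavy chain constant UMIs in B-gated cells and 0.990 in plasma-gated cells. The plasma-gated value ran from 0.429 in Lin- control and 0.616 in Lin+ control to 1.05 in Lin+ iAdFASNKO and 2.31 in Lin- iAdFASNKO. Of its 1069 variable segment UMIs, 1 Lin+ iAdFASNKO cell held 201 and 1 Lin- iAdFASNKO cell 200. T cells had 0.268 (0.0730 to 0.686, 4 over 1493 UMIs), the other immune classes 0.137 (0.00346 to 0.761, 1 over 732) and non-immune classes 0.397 (0.182 to 0.754, 9 over 2267). Pooled in this way, all 3 groups outside the gates were below the B-gated cells by their intervals. Single libraries had few counts and did not all keep this order: in Lin- iAdFASNKO non-immune cells had 2.12 (0.577 to 5.42, 4 UMIs) and B-gated cells 0.443, and in Lin+ control the T-cell (0 to 1.49) and other immune intervals (0.00569 to 1.25) overlapped that of B-gated cells (0.843 to 1.52).

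In plasma-gated cells most pairs of variable segments were found in 1 cell each. A heavy and a light chain V segment could each be called (at least 3 UMIs, 80% from 1 segment) in 29 of the 44 cells, which gave 25 different pairs. In 1 of the 29, an Ighg2b cell of Lin+ control, the called light V segment was Iglv1 although 11571 of its light chain constant UMIs were Igkc and 70 lambda, and 28 cells with 24 pairs remain without it. Iglv1 also led in 2 further cells with a kappa constant part, so light V calls are uncertain for this segment. Pairs shared between cells were found in 7 cells, all of them Ighm cells. Ighv11-2 with Igkv14-126 was found in 1 Lin+ iAdFASNKO and 2 Lin- control cells, and this pair is known from mouse B-1 cells whose antibodies bind phosphatidylcholine. Ighv6-3 with Igkv14-111 and Ighv1-9 with Iglv1 were each found in 1 Lin- iAdFASNKO and 1 Lin+ control cell. The calls rest on 4 to 200 heavy chain V UMIs a cell, and none of the 7 cells shares its barcode with a plasma-gated cell of another library.

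Likeness was measured as the Pearson correlation of log2(CPM + 1) over the classes with at least 20 cells in a library, 35 points that share libraries, depth and free RNA and include no plasma cell gate. The features most like Ighm were Cd72, Traf3, Ptpn6, Cd37 and Stap1, at 0.83 for Cd72 and 0.81 for Stap1. Those most like Jchain were Olfr166, Slc23a1, C130026I21Rik, Siglecg and 1700027J07Rik, from 0.76 down to 0.71, a set resting on few counts. With the plasma cell gate of each library added, an alternative chosen after seeing the data, Mzb1 was the most like Ighm (0.89), and Gm34215, Prg2, Mzb1, Eaf2 and AC168977.1 were most like Jchain (0.91 to 0.89 over 39 points). Mzb1 and Eaf2 are markers of that gate, so their likeness there was set by the gate.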

How the data were processed

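The data are single-cell RNA counts of 4 pooled-mouse libraries. The authors deposited raw UMI counts, whole numbers per gene and barcode, in 2 matrices; the submitters' processing notes name Cell Ranger 3.1.0, Seurat 3.0 and mm10, and software version 3.0.2 stands in the matrix header, per the file headers. The annotation release and any filtering of barcodes upstream were not given in the sources used here. A matrix holds 1 genotype, read from its name, which matches only 1 treatment in the labels, and the labels give the barcode tag of each fraction. If the names were swapped, all directions between genotypes would turn. There were 0 columns of per-sample values left unused.

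Kept barcodes had 300 genes or more, 500 UMIs or more and no more than 10% mitochondrial UMIs. Doublet calls by Scrublet (scanpy 1.11.5, expected rate 0.06, run per library without the 393 immunoglobulin features) were removed, 1.03% to 2.22% of cells. A cell took the class, of 15, with the largest share of its markers on (1 UMI), with at least 3 on; cells tied between classes stayed out. Leiden clusters (leidenalg 0.10.2, scikit-learn 1.9.0, resolution 1, 2000 variable genes, 30 components, 20 neighbours) served as a check. The other classes are the 13 classes besides the B-cell and plasma cell gates; unassigned cells were left out.

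Counts were summed per class and library and given as CPM with exact Poisson 95% intervals, shares with Clopper-Pearson and ratios with exact conditional binomial intervals (scipy 1.17.1), which contained the true fold for 98.5% of 200 changed genes of 9211 when tested on simulated data. The intervals do not cover the weight of single cells in a sum. For Ighm in the Lin+ B-cell gate the interval was 1.05 to 1.13, and 0.855 to 0.926 without the highest cell of each library. UMI counts of a 3′ kit were not divided by gene length. Ratios are iAdFASNKO over control. The named genes are the 9 members and the members of written gene lists. The members and lists were chosen with earlier results of these data known.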

Additional observations from a re-analysis of the deposited data

Results flagged for a closer look

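Some genes went opposite ways in the Lin+ and Lin- plasma cell gates, by the CPM ratio of iAdFASNKO over control. For Ighg2b the ratio was 0.258 in Lin+ and 196 in Lin-. For Ighg3 it was 237 in Lin+ and 0.0173 in Lin-. The lambda light chain Iglc1 had a ratio of 0.0280 in Lin+ and 27.0 in Lin-, and Iglc2 had 0.0313 in Lin+ and 24.2 in Lin-. These differences between fractions were not tested, since each value rests on 1 library per genotype, and for each of these genes 0 to 4 cells of a gate made it.

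Ighe, which is outside the 9 genes, had 1376 UMIs in 1 plasma-gated cell of Lin- control and no UMI in the plasma cell gates of the other libraries. Outside the main measurement, 24 barcodes with fewer than 300 genes had over 50% immunoglobulin UMIs, 6 in Lin+ iAdFASNKO, 2 in Lin+ control, 8 in Lin- iAdFASNKO and 8 in Lin- control. Together they held 8911 immunoglobulin UMIs, and 23 of them repeat the barcode and the heavy chain of a plasma-gated cell in another library.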

How the results depend on the processing

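No paired analysis was possible because each genotype and fraction is 1 library. As log2 ratios of iAdFASNKO over control in the Lin+ B-cell gate, Ighm (0.12) was 0.91 under the stricter cell filter, -0.11 as a mean of scaled cells, -0.17 without the top cell and -0.21 with classes from clusters, and Igkc (0.14) was 0.89, -0.060, -0.11 and -0.14. In the Lin+ plasma cell gate Ighm (0.43) was 0.20 under the stricter filter, 0.50 as a mean of scaled cells and 0.47 when scaled by the median ratio. Igkc (0.22) was 0.16 as a mean of scaled cells, 0.27 without the top cell, 0.26 by the median ratio and -0.056 with clusters, and Jchain (0.24) was 0.094 as a mean of scaled cells. In the Lin- plasma cell gate, under the stricter filter, as a mean of scaled cells and with clusters, Ighm (0.50) was 0.32, 0.58 and 0.35 and Igkc (-0.90) was -0.95, -0.88 and -0.84. Ighm was also 0.20 by the median ratio, 0.27 without immunoglobulin UMIs in the total and 0.91 without the top cell. Igkc was also -0.75 and Jchain (-0.09) -0.013 with at least 4 markers on, -1.13 and -0.31 without immunoglobulin UMIs in the total, and -1.20 and -0.39 by the median ratio. Igkc was -1.10 without the top cell and Jchain -0.38 with clusters. Jchain in the B-cell gate (3.45) turned to -0.81 with clusters, and Ighg3 in the plasma cell gate (7.89) to -2.08 without the top cell. The B-cell gate share was 28.8% (looser filter) and 16.6% (stricter) in Lin+ iAdFASNKO, and 5.54% (stricter) in Lin+ control. Features past the fold (1761) numbered 6269 with at least 1 UMI, 378 with at least 100 UMIs and 624 at a fold of 2. Unswitched B-gated cells (1641) numbered 426 under the stricter filter and 1060 with at least 10 heavy chain UMIs, and switched ones (3) numbered 1 and 1, and 5 at 50% of heavy chain UMIs. In other classes, Igkc CPM of Lin+ iAdFASNKO (116) was 126 (looser), 98.4 (stricter) and 142 (thinned), and that of Lin+ control (91.9) was 70.7 with at least 2 markers on, 185 with at least 4 and 139 thinned. Ighm CPM of Lin+ iAdFASNKO (119) was 125, 71.7 and 157 under the looser filter, the stricter filter and thinning, and that of Lin+ control (60.3) was 45.4 (stricter), 75.4 (thinned) and 56.0 without barcodes that another library held with 10 times the UMIs, a setting chosen after seeing the data. The cause of these changes was not tested. The plasma cell gate share and the 32 unswitched and 12 switched plasma-gated cells stayed within counting error or 1.5 times under every setting run, and 5 settings gave no value.

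The main limit is 1 library per genotype and fraction: no difference between mice can be told apart from one between pools, and matrix names carry the genotype. Plasma cell gates of 7 to 13 cells leave class shares and switched-class levels to single cells. Repeated barcodes between libraries and free RNA bound what low counts can show.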

Other observations

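Receptors and carriers of antibody were read in all cell classes. Fcgrt, the receptor that recycles IgG, had 328 CPM in iAdFASNKO and 382 CPM in control Lin+ macrophages, 239 and 259 CPM in Lin+ progenitors, and 297 and 441 CPM in Lin- lymphatic endothelial cells, against 22.1 and 26.9 CPM in Lin+ B-gated cells. Fcgr1, the high-affinity IgG receptor and a macrophage gate marker, had 105 CPM in iAdFASNKO and 280 CPM in control Lin+ macrophages. Cd5l, the macrophage protein that rides on IgM, had 45.6 CPM in Lin+ control macrophages (34 UMIs). Fcmr, the IgM receptor, had 758 CPM in iAdFASNKO and 721 CPM in control Lin+ B-gated cells, and 5.45 CPM in Lin+ iAdFASNKO T cells.

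Some barcodes rich in antibody transcripts passed the cell filter but neither gate. A Lin+ iAdFASNKO barcode with 6 B-cell and 7 plasma cell markers on held 3547 Ighm, 6335 Iglc3 and 1299 Jchain UMIs and stayed out as mixed. In Lin- iAdFASNKO, 365 of the 425 Ighg3 UMIs of the library lay in 1 unassigned cell. Of 39 retained cells with over 50% immunoglobulin UMIs, 33 were in the plasma cell gate. These were 11 of 13 in Lin+ iAdFASNKO and 10 of 10 in Lin+ control. In Lin- they were 7 of 10 in iAdFASNKO and 5 of 6 in control.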
